A study of Mus musculus with 2 samples.

Results

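Cytosolic ribosomal protein genes encode the protein subunits of the ribosome that translates nuclear-encoded mRNA. The members were the gene symbols that begin with Rpl or Rps and a number, the P stalk genes Rplp0, Rplp1 and Rplp2, and Rpsa, without the ribosomal S6 kinase genes and without rows marked as pseudogenes by "-ps" in their symbol. This name rule used no measured value and found 89 of the 22802 gene symbols in both files. The embryoid file held 88 members among 21459 symbols and the blastocyst file 89 among 19307. Of the members, 52 belong to the large subunit, P stalk included, and 37 to the small subunit. The annotation lists 84 as protein-coding and 3 (Rps12l1, Rps3a2 and Rps3a3) as pseudogenes, and has no entry under the symbols of the other two, Rps4y2 and Rps12l2. Rps4y2 is a synonym of Rps4l in RefSeq. Its sequence was not compared with that of Rps4x, and it is not treated among the paralogs below. In all, 4 members (Rpl3l, Rps12l1, Rps12l2 and Rps3a2) stayed under 20 CPM (UMIs per 1000000 UMIs of the class, a UMI being a counted transcript molecule) in every class compared between or within the libraries, and the other 85 passed that filter.

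The design sets cells of mouse embryoids beside cells of mouse blastocysts, with 1 single-cell library of polyadenylated RNA each (BD Rhapsody whole transcriptome kit, 6000 cells used per library). The embryoids were built from ES cells derived from Lifeact-RFPRuby mice, kept in serum with Lif and the inhibitors PD0325901 and CHIR99021, and from XTE cells reprogrammed from Gata6-H2B:Venus ES cells and kept in CHIR99021, BMP4, Fgf4, heparin and Activin; 10000 ES cells and 50000 to 80000 XTE cells were seeded together, for 48 h in aggregation wells and 48 h in repellent plates. The blastocyst library holds dissociated whole B6C3F1 embryos of embryonic day 4.5. The labels do not say how many embryoids or embryos were pooled, so library, strain, culture and origin cannot be told apart between the libraries, and with 1 library per group no p-value is given: every interval is a 95% interval that covers counting error only.

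A ribosome carries 1 copy of nearly every ribosomal protein, so these genes are transcribed together at high levels in growing cells and their mRNAs are translated together under control of mTOR. Many of their mRNAs begin with a run of pyrimidines at the start site, the 5′ TOP sequence. A few core proteins have a second gene, a paralog, whose mRNA is made in fewer tissues: Rpl39l and Rpl10l are best known from male germ cells, where they stand in for the X-linked genes Rpl39 and Rpl10, and Rps27l is known as a target of p53.

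Rpl39l differed most between the classes of cells described below, and its coding sequence is shown with that of its partner Rpl39 because the reads of both genes have to be told apart for the comparison to hold. Capitals mark the positions at which the pair differ (GENCODE M21 on GRCm38, which is mm10, without the stop codon). The transcript of Rpl39l lies on the plus strand at chr16:10170226-10174630 and that of Rpl39 on the minus strand at chrX:37082520-37085402.
Rpl39l: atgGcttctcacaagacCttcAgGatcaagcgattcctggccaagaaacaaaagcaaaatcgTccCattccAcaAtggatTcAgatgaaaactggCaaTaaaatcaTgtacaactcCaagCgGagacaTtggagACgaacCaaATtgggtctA
Rpl39: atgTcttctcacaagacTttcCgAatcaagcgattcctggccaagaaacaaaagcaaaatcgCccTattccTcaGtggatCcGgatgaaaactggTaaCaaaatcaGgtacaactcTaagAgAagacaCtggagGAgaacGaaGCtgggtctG
The 153 bases differ at 23 positions, an identity of 84.97%, and the longest identical run is 38 bases. The coding sequences of the other paralog pairs were 84.7% identical for Rpl10l and Rpl10, 87.7% for Rpl36al and Rpl36a, 76.2% for Rps27l and Rps27, 73.9% for Rpl3l and Rpl3, 70.2% for Rpl22l1 and Rpl22, and 56.9% for Rpl7l1 and Rpl7. Rpl10l has 1 exon, against 6 in Rpl10. Only coding sequences were compared, not the untranslated parts of the transcripts, and where in a transcript the counted reads lie was not examined. The identities therefore do not show whether the counted reads separate a pair. How reads that fit more than 1 gene were counted is not given in the sources used here.

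Start-site stretches of paralogs and partners show which of them hold the pyrimidine letters CTTTCC. Each runs from 45 bases before to 15 bases after the first start that RefSeq lists for the gene on GRCm38.p6. Capitals mark the letters CTTTCC. Other runs of pyrimidines, such as cttcttct in Rpl39, were not searched for or marked. A stretch without capitals is therefore not shown to lack a pyrimidine start. Rps27 lies at chr3:90213634-90213693 on the minus strand, Rps27l at chr9:66946041-66946100 on the plus strand, Rpl39l at chr16:10170183-10170242 on the plus strand and Rpl39 at chrX:37085208-37085267 on the minus strand. Rpl10l lies at chr12:66284387-66284446 on the minus strand and Rpl10 at chrX:74270771-74270830 on the plus strand. The Rpl39 stretch lies inside the GENCODE transcript span given above for Rpl39, so the start used here is not that of that transcript.
Rps27l: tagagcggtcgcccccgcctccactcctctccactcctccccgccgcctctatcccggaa
Rps27: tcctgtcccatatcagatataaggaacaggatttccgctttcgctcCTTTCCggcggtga
Rpl39l: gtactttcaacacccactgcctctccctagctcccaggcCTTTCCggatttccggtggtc
Rpl39: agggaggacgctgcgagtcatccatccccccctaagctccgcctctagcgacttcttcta
Rpl10l: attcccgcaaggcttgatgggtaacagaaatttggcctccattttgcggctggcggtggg
Rpl10: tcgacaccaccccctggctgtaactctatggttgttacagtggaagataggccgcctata
RefSeq promoters were matched for 64 of the 89 members. In the counts that follow, a gene held the letters when any of its listed starts did, not only the first. On the gene's own strand, from 30 bases before to 50 after the start, CTTTCC was found in 19 of the 64 members, or 29.7%, and in 4.36% of all 27025 genes with a promoter in the table. On either strand of the whole window, from 250 bases before to 50 after the start, CCGGAAG, the core letters bound by ETS-type factors such as GABPA, was found in 26 members, or 40.6%, against 9.93% of all genes. AAGATGGC, the core letters of the YY1 motif, was found in 6 members, or 9.38%, against 3.19% of all genes. Rpl39l held CTTTCC and CCGGAAG, Rps27l held CCGGAAG, and Rpl10l held neither. A match describes these letters in this window and is not a bound site.

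The files hold 28923930 unique molecular identifiers (UMIs) in 5546 embryoid barcodes and 11047555 in 1288 blastocyst barcodes, and 9 barcodes occur in both. After the filters, 5328 embryoid cells had a median of 4768.5 UMIs and 1080 blastocyst cells a median of 9273. Clusters made without the ribosomal protein genes were named from lists of marker genes. In the embryoid library 3697 cells were called primitive-endoderm-like (PrE-like), 108 epiblast-like (EPI-like) and 99 fibroblast-like (FIB-like), and 1424 cells stayed unnamed. The blastocyst library gave 376 trophectoderm-like (TE-like), 447 PrE-like and 257 EPI-like cells. Barcodes were not assigned to ES or XTE cells here. No embryoid cluster qualified as TE-like. Elf5, a trophoblast transcription factor, was at 0 to 0.60 CPM in all 12 embryoid clusters. In the 3 TE-like blastocyst clusters it was at 161 to 597 CPM. Other trophectoderm markers were high in some embryoid clusters, 8 of 18 in the PrE-like cluster led by Nepn and Rbp4. In the unnamed clusters of 777 and 307 cells 6 of 18 were high, beside 16 and 15 of 18 primitive endoderm markers. Those clusters stayed unnamed because trophectoderm-list genes, Tspan8 and Fgfr2 or Lgals3 and Cldn4, were among their leading genes. In the embryoid EPI-like cluster 15 of 16 epiblast markers were high, none of the 18 primitive endoderm markers and 1 of the 18 trophectoderm markers.

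Ribosomal protein transcripts were a large and similar share of all UMIs in every class but the embryoid EPI-like cells, where the share was higher. In the embryoid library the members took 9.44% of UMIs in PrE-like cells (interval 9.42 to 9.45%), 9.52% in unnamed cells, 10.3% in FIB-like cells and 13.94% in EPI-like cells (13.86 to 14.02%). In the blastocyst library they took 9.40% in TE-like cells (9.37 to 9.43%), 9.33% in PrE-like cells (9.30 to 9.36%) and 10.3% in EPI-like cells (10.3 to 10.4%). The embryoid EPI-like cells thus stood above the other classes, whose shares were close together. Cells of a class varied more than counting alone gives: the SD of the share over cells ran between 1.68 and 2.99 percentage points in the named classes, while binomial counting at the same depths gives 0.35 to 0.54 points.

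The shares of single cells overlapped between classes in the blastocyst and less so in the embryoids. From the lower to the upper quartile, blastocyst cells spanned 7.08 to 10.4% in TE-like, 8.32 to 10.6% in PrE-like and 9.39 to 11.4% in EPI-like cells. In the embryoids the quartiles were 7.89 to 10.5% in PrE-like and 12.4 to 15.0% in EPI-like cells, so that these quartile ranges did not touch. Median mitochondrial shares moved with the lineages of the blastocyst, at 11.8% in TE-like, 9.34% in PrE-like and 9.65% in EPI-like cells, and were 6.54% in embryoid PrE-like and 5.204% in embryoid EPI-like cells. Within the named classes, cells with a higher mitochondrial share had a lower ribosomal protein share (Spearman's rho between -0.19 and -0.46 over the cells of a class, which share 1 library and both shares' denominator), and rho with the UMI total was between -0.16 and 0.18. By single cluster of the blastocyst, rho with the mitochondrial share was -0.10, -0.03 and 0.13 in TE-like cells. It was -0.45 and -0.51 in PrE-like and -0.30 and -0.08 in EPI-like clusters. Outside mitochondrial genes the members took 10.1% in embryoid PrE-like and 14.7% in embryoid EPI-like cells, and 10.7%, 10.3% and 11.5% in TE-like, PrE-like and EPI-like cells of the blastocyst.

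**Figure D1:**
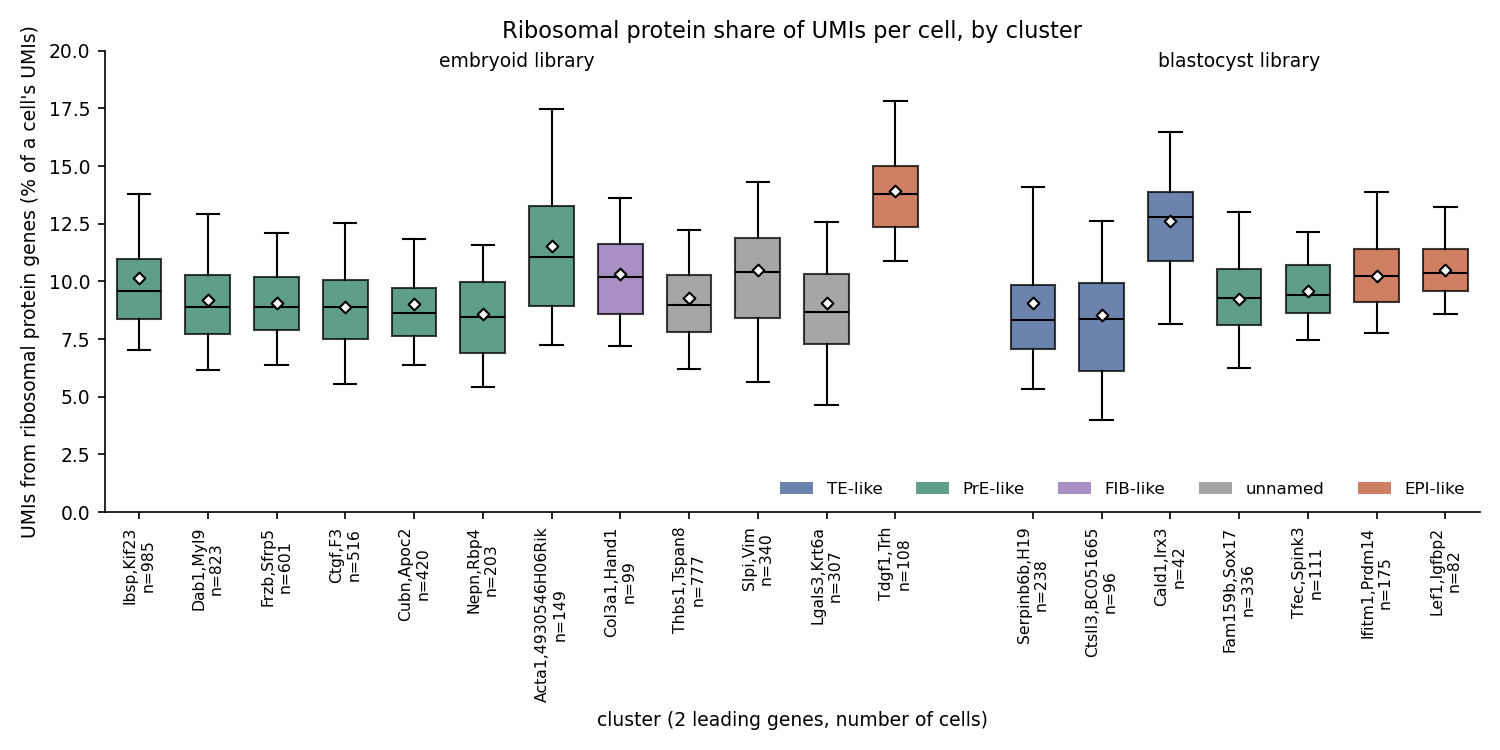
Percentage of UMIs taken by the ribosomal protein genes in each cluster, coloured by class, embryoid clusters and blastocyst clusters apart; boxes span the quartiles over cells with a line at the median, whiskers the 5th to 95th percentile, and diamonds are the share in the cluster's summed UMIs. The embryoid EPI-like cluster, at a cell median of 13.8%, and 1 TE-like cluster of the blastocyst, at 12.8%, stand above the other clusters.

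Within the embryoid PrE-like and unnamed cells most clusters were close together, at 8.60 to 9.27% of UMIs. A cluster of 985 cells led by genes of mitosis, among them Kif23, Hmmr, Ccnb1, Cenpf and Top2a, was at 10.1%. An unnamed cluster of 340 cells led by Slpi and Vim, with 1482 CPM of summed fibroblast markers, was at 10.5%. A cluster of 149 cells led by Acta1, unannotated transcripts and pseudogene rows was at 11.5%, and its cells were shallow, with a median of 2366 UMIs. The part of cell cycle, depth and cell type in these shares was not tested.

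Among the blastocyst lineages the members were slightly lower in TE-like and in PrE-like cells than in EPI-like cells, both summed and in the median. The ratio reported for a single gene is the log2 ratio of its CPM in the summed counts of each class, with 1 CPM added, and its interval is that of the ratio of counts with nothing added. For TE-like over EPI-like cells the summed members gave a log2 ratio of -0.14, and the median over the 85 members that passed the filter was -0.19, with 70 members below 0. For PrE-like over EPI-like cells the summed ratio was -0.15 and the median -0.15, with 74 below 0. TE-like over PrE-like cells gave 0.01 summed and a median of -0.03, with 46 below 0. The direction of the ratios that involve TE-like cells depends on scaling: the median of all genes with at least 20 CPM in both classes was itself at -0.26 over EPI-like and -0.28 over PrE-like cells (-0.31 and -0.37 over genes with at least 20 CPM in either), and relative to that shift the summed members were higher in TE-like cells, by 0.12 and 0.29. With cells of at most 10% mitochondrial UMIs the TE-like share equalled the EPI-like share, at 10.6% each, with 116 TE-like cells left. For PrE-like over EPI-like cells the shift of all genes was -0.02, and the summed ratio stayed negative under every alternative.

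The members' ratios were spread less than those of all genes. Their SD of log2 ratios was 0.35 in TE-like over EPI-like cells, against 1.76 over all genes that passed the filter, 0.18 against 1.28 in PrE-like over EPI-like cells, and 0.25 against 1.59 in TE-like over PrE-like cells. Of the 85 members, 68, 77 and 72 lay within 0.25 of the members' median in these comparisons. High counts narrow the members' spread, and their part in it was not separated.

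In TE-like over EPI-like cells, 5 members were at least 1.5-fold lower, where 38.7% of all 7079 genes tested were, and 0 were at least 1.5-fold higher, where 21.3% were. They were Rpl10l, Rpl7l1, Rpl39l, Rpl24 and Rpl10a. At least 2-fold lower were the first 3 of these, where 23.1% of all genes were, and 0 were 2-fold higher, where 15.1% were. Rpl24, a large subunit protein at the joint between the subunits, had 41.8 CPM in the TE-like class, against 69.6 CPM in the EPI-like class, a log2 ratio of -0.72 (interval -1.06 to -0.42). At the other end were Rps27l at 0.43, Rps29 at 0.29, Rpl41 at 0.23 and Rpl35 at 0.14. Rps29, a small zinc-binding protein of the small subunit, had 2203 CPM in the TE-like class, against 1801 CPM in the EPI-like class.

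For PrE-like over EPI-like cells the fewest members of the 3 blastocyst comparisons were past 1.5-fold. At least 1.5-fold lower were 2 members, Rpl10l and Rpl24, where 18.1% of 7139 genes were, and 0 were higher, where 22.8% were. Rpl10l was also past 2-fold, where 9.99% of all genes were, and 0 members were 2-fold higher, where 13.6% were. Rpl36a, an X-linked large subunit gene, had 1142 CPM in PrE-like and 1627 CPM in EPI-like cells, a log2 ratio of -0.51 (-0.57 to -0.45), and Rpl26 stood at -0.44. The highest ratio was that of Rplp0, the central protein of the P stalk to which elongation factors dock, with 722 CPM in PrE-like and 599 CPM in EPI-like cells (0.27, interval 0.18 to 0.36). Rpl27a (0.15), Rps2 (0.12) and Rpl10 (0.04) followed. In TE-like over PrE-like cells 3 members, Rpl10l, Rpl7l1 and Rpl10a, were at least 1.5-fold lower, where 38.2% of 7143 genes were, and 0 were higher, where 16.8% were. At 2-fold, Rpl10l was lower, where 20.6% of all genes were, and 0 were higher, where 11.5% were. Rpl10a had 70.0 CPM in TE-like and 110 CPM in PrE-like cells. The highest were Rps27l at 0.41, Rpl41 at 0.30, Rps29 at 0.26 and Rps26 at 0.26.

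**Figure D2:**
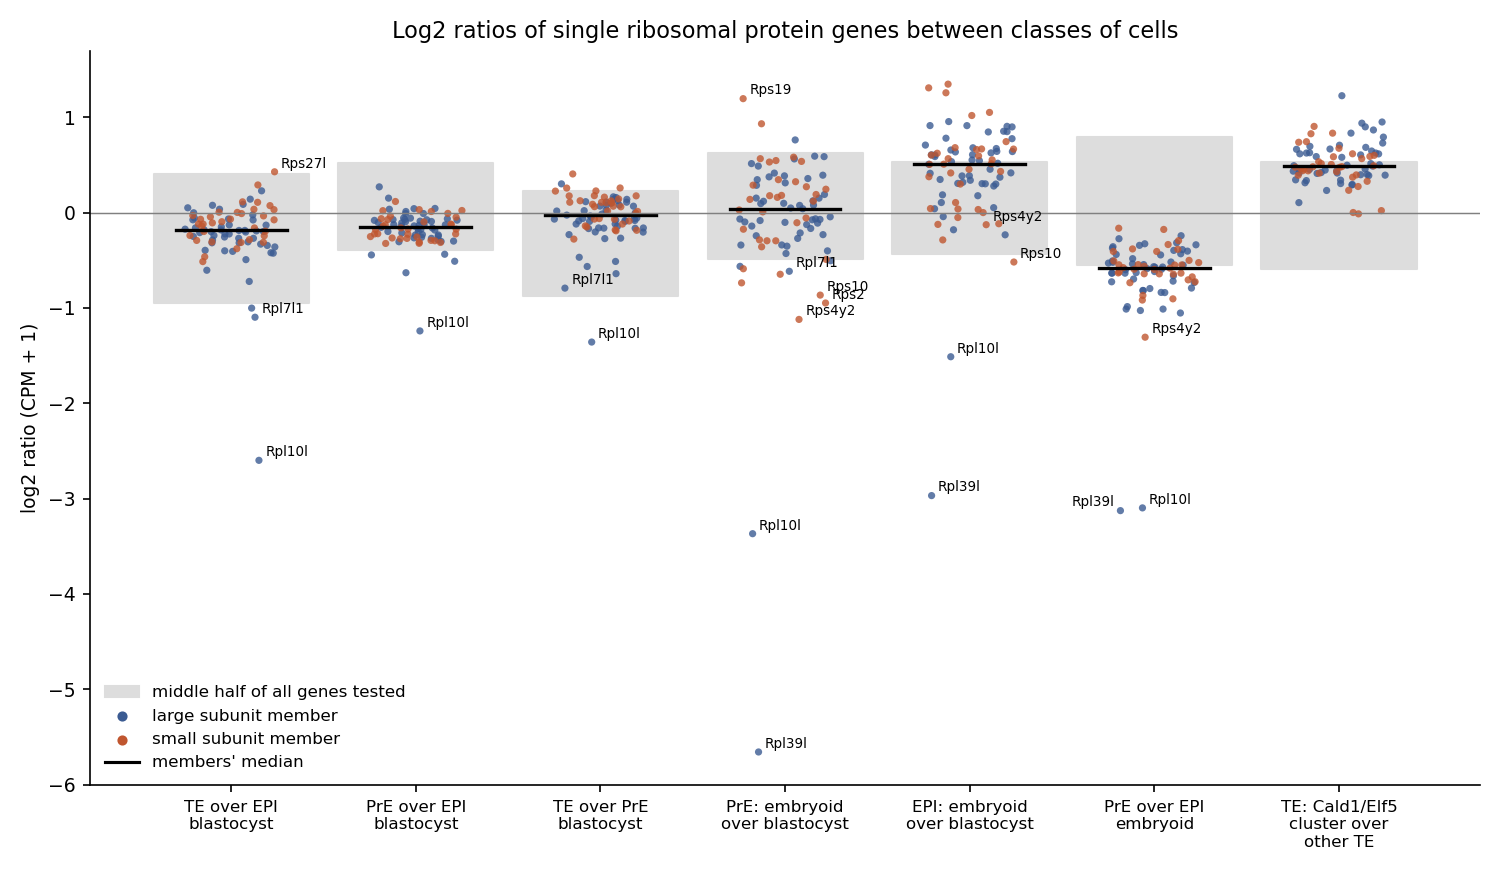
Log2 ratios (CPM with 1 added) of single members in each comparison of classes, large and small subunit members in separate colours, with a bar at the members' median and a grey band between the quartiles of all genes tested. In the blastocyst comparisons most members lie within 0.25 of the median. Rpl39l and Rpl10l fall far below it in the comparisons that involve the embryoids. Rpl10l also does so between the blastocyst classes, at -2.60 in TE-like over EPI-like, -1.24 in PrE-like over EPI-like and -1.36 in TE-like over PrE-like cells.

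In one group of TE-like cells ribosomal protein mRNA was a larger share of UMIs than in the rest. The 42 cells of the smallest TE-like cluster, led by Cald1, Irx3, S100a6 and Elf5, had a members' share of 12.6% (12.5 to 12.7%), against 8.90% (8.87 to 8.94%) in the 334 other TE-like cells, a summed log2 ratio of 0.50. This comparison was chosen after the shares had been seen, so its size is a description. Of the 84 members that passed the filter, 31 were at least 1.5-fold higher, where 22.3% of 6337 genes were, and 0 were lower, where 25.3% were; 83 of the 84 ratios were positive. The count of higher members was 19 outside mitochondrial UMIs and 16 with median-of-ratios scaling. It was 16 with called doublets kept and 13 with at most 10% mitochondrial UMIs, so it depends on these settings. The share of all genes past 1.5-fold was not computed under these settings. Whether the members exceeded that share there is therefore not known. At least 2-fold higher was Rpl22l1 alone, where 9.26% of all genes were, and 0 were 2-fold lower, where 14.7% were. The highest were Rpl22l1 at 1.23 (484 CPM against 206 CPM), Rpl36 at 0.95, Rpl6 at 0.94 and the pseudogene Rps3a3 at 0.90, and the lowest were Rps29 at -0.01, Rps3a1 at 0.00, Rps28 at 0.02 and Rpl39l at 0.11. Elf5, which in the embryo marks trophoblast stem cells, was at 597 CPM there and at 161 and 197 CPM in the other two TE-like clusters.

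The 42 cells also differed in depth and mitochondrial share, with a median of 11700.5 UMIs against 8314.5 and a mitochondrial share of 8.05% against 12.2%. Summed epiblast markers were at 1705 CPM there and 2850 CPM in the other TE-like cells, summed primitive endoderm markers at 258 CPM and 1725 CPM, and summed trophectoderm markers at 10003 CPM and 11539 CPM. Outside mitochondrial genes the share was 13.8% against 10.2%. The part of depth and mitochondrial share was not tested.

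In the embryoids all 85 members were lower in PrE-like than in EPI-like cells. The summed log2 ratio was -0.56 and the median -0.58, against a median of 0.05 over all 7604 genes tested. At least 1.5-fold lower were 42 members, where 23.7% of all genes were, and 0 were higher, where 30.9% were. At least 2-fold lower were 7, where 12.4% were, and 0 were 2-fold higher, where 20.1% were. The 7 were Rpl39l, Rpl10l, Rps4y2, Rpl10a, Rpl7l1, Rpl8 and Rpl24. Rpl8, whose protein lies at the peptidyl transferase centre of the large subunit, had 962 CPM in PrE-like and 1941 CPM in EPI-like cells. Rpl13, with 649 CPM and 1286 CPM, was just short of 2-fold (-0.99). The lowest ratios relative to the median were those of Rpl39l, Rpl10l, Rps4y2 (-1.31) and Rpl10a (-1.05), and the highest those of Rps28 (-0.16), Rps27l (-0.18), Rpl38 (-0.24) and Rpl10 (-0.27). Rps28, a small protein near the mRNA exit site, had 2871 CPM in PrE-like and 3215 CPM in EPI-like cells. Summed epiblast markers were at 155 CPM in PrE-like and 6615 CPM in EPI-like cells, and summed primitive endoderm markers at 19491 CPM and 2133 CPM.

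The same contrast in the blastocyst went in the same direction for most members and was smaller for all of them. PrE-like over EPI-like ratios were negative in both libraries for 74 of the 85 members, and the embryoid ratio was the more negative for 85 of 85, by a median of -0.43. Rplp0 stood at -0.54 (-0.66 to -0.41) in the embryoids and at 0.27 (0.18 to 0.36) in the blastocyst. Rps2, a small subunit protein at the mRNA entry channel, stood at -0.87 (-0.99 to -0.75) and 0.12 (0.04 to 0.19). Since all members are scaled to the same totals, the count of 85 is not 85 separate observations.

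Between the libraries, PrE-like cells had nearly the same summed share. Single members were spread more than in the blastocyst comparisons and less than all genes. Embryoid over blastocyst PrE-like cells gave a summed log2 ratio of 0.02 and a median of 0.04, with 38 members within 0.25 of the median. The SD was 0.83 over members, against 1.37 over all genes tested, and Rpl39l and Rpl10l lay farthest from the members' median. Quartiles were -0.27 and 0.31 for the members, against -0.49 and 0.63 for all genes. At least 1.5-fold higher were 5 members, among them Rps19, Rps6, Rpl26 and Rpl10, where 26.5% of 7561 genes were, and 9 were lower, where 21.5% were. At 2-fold 1 was higher (Rps19), where 16.3% of all genes were, and 3 were lower, where 11.5% were. Rps19, a small subunit protein mutated in Diamond-Blackfan anaemia, had 1025 CPM in embryoid and 447 CPM in blastocyst PrE-like cells, a log2 ratio of 1.20 (1.13 to 1.27). Rps6, the protein that S6 kinase phosphorylates, had 467 CPM against 244 CPM (0.93), and Rpl26 had 544 CPM against 320 CPM (0.76). Among the lower were Rpl39l, Rpl10l, Rps4y2, Rps2, Rps10, Rps29, Rps24 and Rpl7l1. Rps2 had 485 CPM against 936 CPM (-0.95), Rps10 had 526 CPM against 958 CPM, and Rps29 had 1105 CPM against 1841 CPM.

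In EPI-like cells of the embryoids ribosomal protein mRNA was a larger share of UMIs than in those of the blastocyst. The summed log2 ratio was 0.43, 1.35-fold, and the median 0.51, with 74 of 85 members positive. At least 1.5-fold higher were 35 members, where 22.9% of 7102 genes were, and 2 were lower, Rpl39l and Rpl10l, where 19.1% were. Outside mitochondrial UMIs 23 members were higher, the median mitochondrial share being 5.204% in embryoid and 9.65% in blastocyst EPI-like cells. The share of all genes past 1.5-fold was not computed with that scaling, so whether the 23 members exceeded it is not known. At 2-fold 5 were higher, where 11.7% of all genes were, and the same 2 were lower, where 9.07% were. The highest were again Rps19, with 1257 CPM against 493 CPM (1.35, interval 1.23 to 1.47), then Rpsa, also known as the laminin receptor, with 1725 CPM against 695 CPM (1.31), Rps6 with 726 CPM against 303 CPM (1.26), and Rps25, needed by some viral and cellular internal ribosome entry sites, with 585 CPM against 282 CPM (1.05). After the paralogs, Rps10 (-0.52) and Rps24 (-0.29) were lowest. The ratios of Rps2 and Rps4y2 were 0.04 and -0.13 in EPI-like cells, against -0.95 and -1.12 in PrE-like cells.

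**Figure D3:**
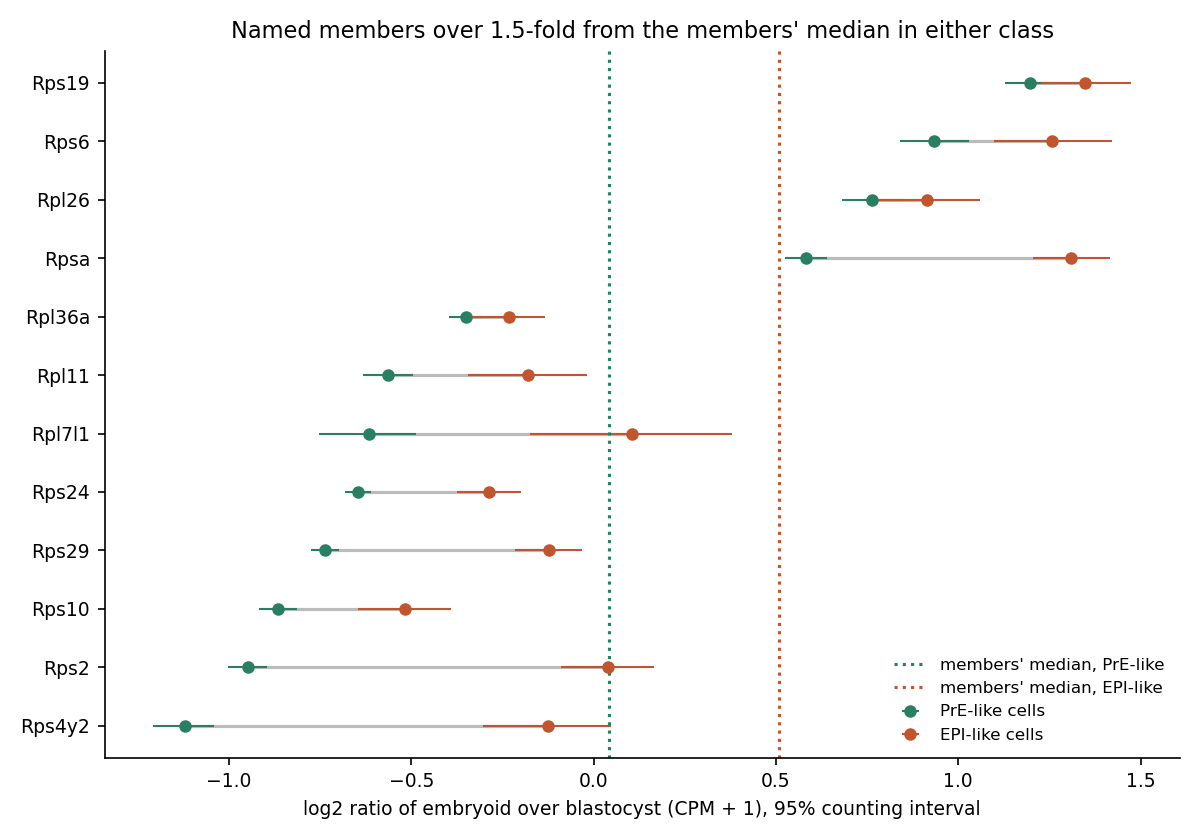
Log2 ratio of embryoid over blastocyst cells (CPM with 1 added) for 12 named members that lay over 1.5-fold from the members' median in PrE-like or in EPI-like cells, with 95% counting intervals; Rpl39l and Rpl10l are left out, and dotted lines mark the members' medians. Rps19 and Rps6 lie above both medians, and Rps10 and Rps24 lie below 0 in both classes.

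Of the paralogs, Rpl39l and Rpl10l separated the libraries most. Rpl39l had 6.75 CPM in PrE-like (140 UMIs) and 66.7 CPM in EPI-like cells (48 UMIs) of the embryoids, and 263 CPM in TE-like, 390 CPM in PrE-like and 528 CPM in EPI-like cells of the blastocyst. Each of the 3 blastocyst classes was thus above each embryoid class, and within each library the EPI-like class was highest. Embryoid over blastocyst, its log2 ratio was -5.66 (-6.11 to -5.60) in PrE-like and -2.97 (-3.43 to -2.57) in EPI-like cells. Within the embryoids the ratio of PrE-like over EPI-like cells was -3.13 (-3.79 to -2.80), and in the blastocyst it was -0.44 (-0.54 to -0.33), with TE-like over EPI-like cells at -1.003 (-1.12 to -0.88).

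Its partner Rpl39, the short protein that lines the exit tunnel, had 1020 CPM in PrE-like and 1321 CPM in EPI-like embryoid cells, and 1065, 1091 and 1284 CPM in TE-like, PrE-like and EPI-like blastocyst cells. Its levels relative to the members' median covered a range of 0.47 on the log2 scale over these 5 classes, against 6.08 for Rpl39l. The embryoid FIB-like cells held 0 UMIs of Rpl39l, and 3 UMIs there would be 8.09 CPM. Rpl39l was low in every PrE-like or unnamed embryoid cluster, at 0.44 to 9.07 CPM. Summed epiblast markers in embryoid PrE-like cells were 155 CPM, against 6615 CPM in EPI-like cells, and how far free RNA or mixed barcodes give the 6.75 CPM of Rpl39l was not tested.

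Rpl10l was also lowest in embryoid PrE-like and highest in blastocyst EPI-like cells. It had 2.36 CPM in PrE-like and 27.8 CPM in EPI-like embryoid cells, and 12.5 CPM in TE-like, 33.7 CPM in PrE-like and 81.0 CPM in EPI-like blastocyst cells. Embryoid over blastocyst, the log2 ratio was -3.37 (-4.34 to -3.36) in PrE-like and -1.51 (-2.29 to -0.88) in EPI-like cells, and the intervals of the embryoid EPI-like level (17.0 to 42.9 CPM) and the blastocyst PrE-like level (28.3 to 39.8 CPM) overlap. In the blastocyst the TE-like cells were the lowest class, below the embryoid EPI-like level, with a log2 ratio over EPI-like cells of -2.60 (-3.19 to -2.22). FIB-like embryoid cells held 0 UMIs. Rpl10, which helps shape the active centre, went the other way between the libraries, with 466 CPM in embryoid and 310 CPM in blastocyst PrE-like cells (0.59), and 564 CPM and 301 CPM in EPI-like cells (0.91). For the lowest levels the log2 ratio depends on the CPM added: with 10 CPM added, embryoid over blastocyst PrE-like cells gave -4.58 for Rpl39l and -1.82 for Rpl10l.

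**Figure D4:**
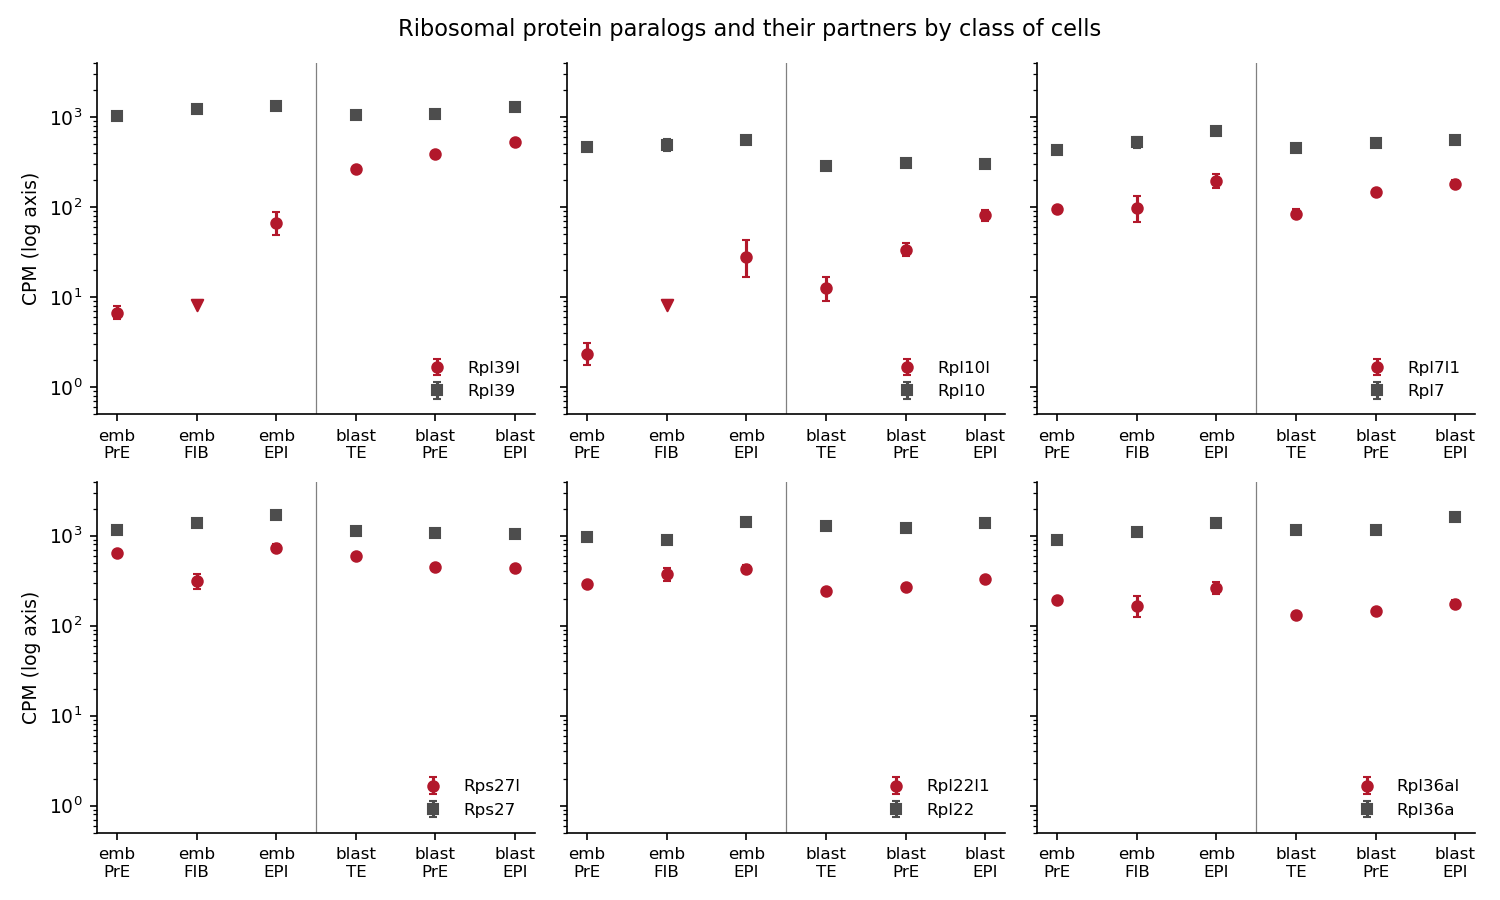
CPM (log axis) of 6 paralogs, in red, and their partners, in grey, in 6 classes of cells, with 95% counting intervals; levels are compared along a gene, not between genes. Triangles stand at the level 3 UMIs would give where 0 were counted, at 8.09 CPM in FIB-like cells. Rpl39l is lower in the embryoid than in the blastocyst classes, while Rpl39 lies between 1020 and 1321 CPM in PrE-like, TE-like and EPI-like cells.

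Rpl7l1, a relative of Rpl7 whose yeast counterpart acts in ribosome assembly, followed the epiblast in both libraries. It had 95.6 CPM in PrE-like and 196 CPM in EPI-like embryoid cells, and 84.5, 147 and 182 CPM in TE-like, PrE-like and EPI-like blastocyst cells. TE-like over EPI-like cells gave -1.10 (-1.32 to -0.90), while Rpl7 itself had 449 CPM and 565 CPM. Rps27l was highest in the TE-like class of the blastocyst, with 590 CPM in TE-like, 445 CPM in PrE-like and 438 CPM in EPI-like cells. PrE-like over EPI-like cells gave 0.02 (-0.08 to 0.13). By cluster it was at 581, 438 and 907 CPM in TE-like cells, 907 CPM being that of the 42 cells of high share. PrE-like clusters were at 408 and 532 CPM and EPI-like clusters at 390 and 510 CPM, so the clusters overlap. In the embryoids it had 650 CPM in PrE-like, 310 CPM in FIB-like and 735 CPM in EPI-like cells. Cdkn1a, another p53 target, had 442 CPM in PrE-like, 443 CPM in FIB-like and 224 CPM in EPI-like embryoid cells. Rps27l did not share that order, while both genes were higher in embryoid than in blastocyst PrE-like and EPI-like cells. A part of p53 in this was not tested. Rpl22l1, with 287 CPM in PrE-like and 428 CPM in EPI-like embryoid cells and 243 to 327 CPM in the blastocyst classes, and Rpl36al, with 194 and 262 CPM and 130 to 174 CPM, stayed near the members' median. Rpl3l, a muscle paralog of Rpl3, was listed in the blastocyst file only and had 0, 2 and 2 UMIs in TE-like, PrE-like and EPI-like blastocyst cells.

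Functional subsets of the core are given in turn. The P stalk genes Rplp0, Rplp1 and Rplp2 had a median log2 ratio of -0.15 in TE-like over EPI-like, -0.01 in PrE-like over EPI-like and -0.12 in TE-like over PrE-like cells of the blastocyst, -0.54 in PrE-like over EPI-like cells of the embryoids, and, embryoid over blastocyst, -0.07 in PrE-like and 0.55 in EPI-like cells. Rplp1 had 2808 CPM in PrE-like and 4667 CPM in EPI-like embryoid cells, and Rplp2 had 2706 CPM and 3884 CPM. Rpl5 and Rpl11, the proteins of the 5S ribonucleoprotein that can bind Mdm2, were at 629 and 355 CPM in PrE-like and 935 and 526 CPM in EPI-like embryoid cells, with PrE-like over EPI-like ratios of -0.57 for both. In blastocyst TE-like, PrE-like and EPI-like cells Rpl5 had 570, 597 and 657 CPM and Rpl11 had 495, 525 and 596 CPM. The 4 X-linked members, Rps4x, Rpl10, Rpl36a and Rpl39, had a median of -0.38 in TE-like over EPI-like, -0.28 in PrE-like over EPI-like and -0.08 in TE-like over PrE-like cells of the blastocyst and of -0.50 in PrE-like over EPI-like cells of the embryoids. Embryoid over blastocyst their medians were -0.19 in PrE-like and 0.04 in EPI-like cells, against 0.04 and 0.51 over all members, with Rpl10 at 0.59 and 0.91. Rps4x had 1073 CPM in PrE-like and 1675 CPM in EPI-like embryoid cells, and 1146, 1308 and 1637 CPM in TE-like, PrE-like and EPI-like blastocyst cells.

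Several members kept a nearly fixed place among the members. Relative to the members' median in each of the 5 classes, Rps20 had an SD of 0.03, and Rpl18 and Rps27 of 0.07 on the log2 scale. The widest ranges were those of Rpl39l (6.08), Rpl10l (4.60), Rps4y2 (1.42), Rps12l1 and Rpl3l, both of which stayed at 2.78 CPM or less, followed by Rps10 (1.15), Rps19 and Rpl7l1 (1.08 each), Rps2 (1.07) and Rps6 (1.01). Large subunit members, P stalk apart, and small subunit members had close medians. In the blastocyst they were -0.22 for large and -0.10 for small in TE-like over EPI-like, -0.15 and -0.17 in PrE-like over EPI-like, and -0.06 and 0.08 in TE-like over PrE-like cells. Within the embryoids they were -0.59 and -0.58, and between the libraries 0.00 and 0.13 in PrE-like and 0.51 and 0.51 in EPI-like cells.

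Genes that make ribosomes had lower medians than the ribosomal proteins in both TE-like comparisons of the blastocyst and within the embryoids. In TE-like over EPI-like cells the median of 38 ribosome biogenesis genes was -0.82, against -0.31 over all genes tested, with 27 at least 1.5-fold lower, where 38.7% of all genes were, and 0 higher, where 21.3% were. Ubtf, a factor of RNA polymerase I transcription, had 70.5 CPM in the TE-like class, against 197 CPM in the EPI-like class, and Rrn3, which recruits that polymerase, had 54.6 CPM and 181 CPM, while Sbds (0.36) and Polr1d (0.01) were highest. In TE-like over PrE-like cells the median was -0.63, against -0.37 over all genes, with 19 of 37 lower, where 38.2% of all genes were, and 0 higher, where 16.8% were, led by Mybbp1a (-1.44) and Gnl3 (-1.27). In PrE-like over EPI-like cells it was -0.07, nearer 0 than the members' median, with 3 of 38 lower, where 18.1% were, and 0 higher, where 22.8% were. Within the embryoids it was -0.97, with 31 of 38 lower in PrE-like cells, where 23.7% were, and 0 higher, where 30.9% were. Ddx21, a nucleolar helicase, had 89.0 CPM in PrE-like and 351 CPM in EPI-like embryoid cells.

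Between the libraries, the biogenesis median was far from 0 in PrE-like cells and the members' median in EPI-like cells. In PrE-like cells 27 of 37 biogenesis genes were at least 1.5-fold lower in the embryoids, where 21.5% of all genes were, and 0 higher, where 26.5% were, with a median of -0.92 and the lowest ratios at Bop1 (-2.08) and Ddx21 (-1.94). In EPI-like cells the biogenesis median was -0.08, with 1 of 38 higher, where 22.9% were, and 2 lower, where 19.1% were. In the 42 TE-like cells with a high share, 25 of 36 biogenesis genes were at least 1.5-fold higher than in the other TE-like cells, where 22.3% were, and 0 lower, where 25.3% were, with a median of 0.87, led by Bop1 (1.59) and Nop16 (1.57).

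The lists of translation factors had medians of their own. The 8 genes listed with the elongation factors include Tpt1 and Eef1e1. Their median was -0.22 in TE-like over EPI-like, 0.11 in PrE-like over EPI-like and -0.18 in TE-like over PrE-like cells. It was 0.22 and 0.81 in PrE-like and EPI-like cells of embryoid over blastocyst, and -0.63 in PrE-like over EPI-like embryoid cells. In the 42 TE-like cells over the other TE-like cells it was 0.42. Eef1a1, the factor that brings aminoacyl-tRNA, had 1746 CPM in embryoid and 771 CPM in blastocyst EPI-like cells. The median of 28 initiation factor genes in the same order was -0.43, -0.09, -0.30, -0.19, 0.23, -0.49 and 0.41. Eif2s2, a subunit of eIF2, had 503 CPM in embryoid and 2886 CPM in blastocyst PrE-like cells (-2.52). Pabpc1, the poly(A)-binding protein with a TOP mRNA, had 869 CPM in TE-like, 2195 CPM in PrE-like and 1847 CPM in EPI-like blastocyst cells, with TE-like over PrE-like cells at -1.34. The mitochondrial ribosomal protein genes, 67 to 70 of 75 past the filter, had medians of -0.19, -0.13, -0.06, -0.41, -0.18, -0.38 and 0.38.

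A list of 13 other genes with TOP mRNAs shares genes, among them Tpt1 and Pabpc1, with the lists of translation factors. Its medians were -0.42 in TE-like over EPI-like, -0.12 in PrE-like over EPI-like and -0.31 in TE-like over PrE-like cells. They were 0.14 and 0.41 between PrE-like and between EPI-like cells, and -0.53 within the embryoids. In the 42 TE-like cells the median was 0.64, and Npm1 had 6709 CPM there against 2481 CPM. Fau, whose product includes a small subunit protein but whose symbol falls outside the name rule, stood at 0.37, 0.22, 0.15, 0.70, 0.86, 0.06 and 0.45 in the same order. Of 13 Myc and mTOR pathway genes, Myc had 3.38 CPM in embryoid and 41.7 CPM in blastocyst PrE-like cells, and 22.2 CPM and 55.2 CPM in EPI-like cells. Eif4ebp1, the mTOR-controlled inhibitor of eIF4E, had 86.2 CPM in TE-like, 146 CPM in PrE-like and 328 CPM in EPI-like blastocyst cells, and 134 CPM and 353 CPM in PrE-like and EPI-like embryoid cells. The pathway list had medians of -0.54, -0.32, -0.44, -0.05, 0.02, -0.49 and 0.04. Of 8 genes of the p53 list, Trp53 had 78.1 CPM in PrE-like and 272 CPM in EPI-like embryoid cells, and 48.0, 112 and 359 CPM in TE-like, PrE-like and EPI-like blastocyst cells. That list's medians were -1.01, -0.58, -0.28, 1.27, 0.90, 0.71 and 0.71, and Cdkn1a was 442 CPM in embryoid and 7.03 CPM in blastocyst PrE-like cells.

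**Figure D5:**
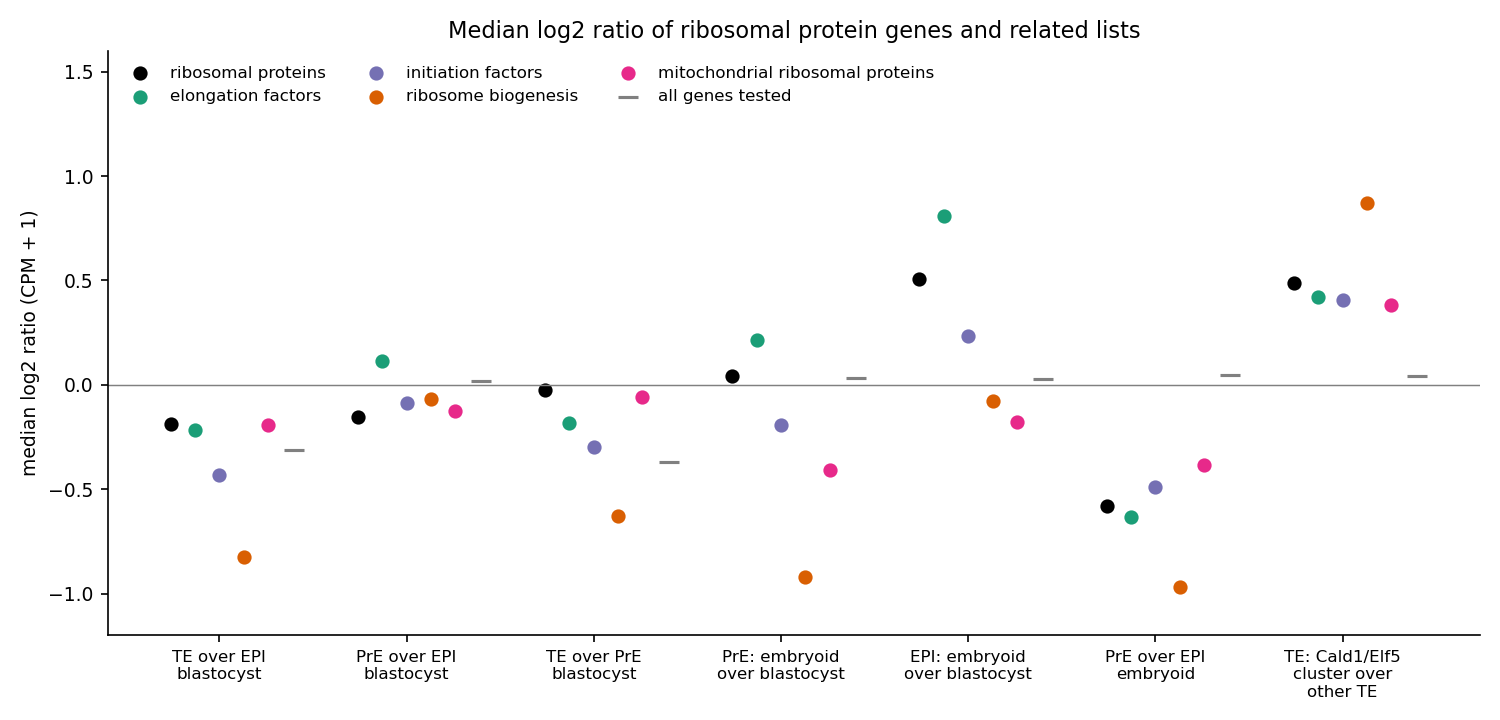
Median log2 ratio (CPM with 1 added) of the ribosomal protein genes and of 4 related gene lists in each comparison of classes, with a grey dash at the median of all genes tested. Ribosome biogenesis genes reach -0.97 within the embryoids and -0.92 between PrE-like cells, where the ribosomal proteins are at -0.58 and 0.04.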

How the data were processed

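Per the labels, libraries of polyadenylated RNA were made from 1 embryoid and 1 blastocyst sample. The authors deposited raw UMI counts per gene symbol and cell barcode. Per the submitters' processing notes, reads were handled with STAR 2.7.1a, featureCounts 1.6.4 of Subread, UMI-tools 1.0.1 and bcl2fastq 2.19.1.403, and the build was mm10. Not given in the sources used here are the annotation, the strand setting and the cell calling.

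Barcodes were kept with at least 1000 UMIs, 500 genes and at most 25% mitochondrial UMIs. Scrublet (scanpy 1.11.5) called 17 doublets among 1097 blastocyst barcodes, or 1.55%, which were removed, and 0 among 5328 embryoid barcodes, so the caller did not work there and doublets remain. Each library was clustered alone, without ribosomal, mitochondrial and listed genes (2000 variable genes, 30 components, 20 neighbours, Leiden resolution 1.0; leidenalg 0.10.2). A cluster took a name ending in "-like" when at least 3 markers and at least 50% of a class's listed markers were high (at least 20 CPM) and its 10 leading genes did not go against it; the 50% rule was set after marker levels were seen. Of 93 marker genes in 8 classes, epiblast, primitive endoderm, trophectoderm and fibroblast lists gave names.

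UMIs were summed per class and scaled to CPM over all UMIs (scipy 1.17.1 and pandas 2.3.3 under Python 3.11.15). Genes with at least 20 CPM in either class were compared by log2 ratio with 1 CPM added. Intervals are exact Poisson, Clopper-Pearson for shares and conditional binomial for ratios, at 95%; they cover counting error only. The ratio script was tested on simulated counts. A difference of 1.5-fold counted as called, with 2-fold given beside it. Named are the 4 members highest and the 4 lowest against the members' median in each comparison, paralogs and partners, P stalk, 5S ribonucleoprotein and X-linked members, and the highest and lowest of each related list; Rpl8, Rpl13 and members listed as past 1.5-fold were named after their values were seen. A few members are counted but not reported here by name. Members and lists were chosen with earlier results of these data known.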

Additional observations from a re-analysis of the deposited data

Results flagged for a closer look

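Rplp0 and Rps2 had PrE-like over EPI-like ratios of opposite sign in the embryoids and the blastocyst, with both intervals on their side of 0. The embryoid minus blastocyst difference of the log2 ratios was -0.81 for Rplp0 and -0.99 for Rps2. With 1 library each, these differences were not tested. The members' median difference was -0.43, so both are lower than that of the whole group. Other members had differences of like or larger size without opposite signs past their intervals. Among them were Rpl39l (-2.69), Rpl10l (-1.86), Rpl10a (-1.09), Rps4y2 (-0.99), Rpl8 (-0.94) and Rpl13 (-0.82).

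Rows that carry ribosomal protein symbols with "-ps", annotated as pseudogenes and not counted among the members, were not empty. These 205 symbols held 0.285% of UMIs in embryoid cells and 0.264% in blastocyst cells. By class they held 0.281% in PrE-like and 0.397% in EPI-like embryoid cells, and 0.259%, 0.253% and 0.286% in TE-like, PrE-like and EPI-like blastocyst cells, an order in which the EPI-like classes are highest, as for the members. Whether these counts are reads of the parent genes was not tested.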

How the results depend on the processing

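Of 308 alternative values of the main results, 250 stayed within counting error or within 1.5 times the count and 58 moved. No difference past 1.5-fold reversed; the summed members, none of them past 1.5-fold, changed sign in 3 comparisons as given here. Of 756 values of single genes and lists, 701 stayed and 55 moved. All moved main values follow as log2 ratios of the summed members unless a count is named. Shares of all genes past 1.5-fold were not computed under the alternatives, so the counts of members below have none beside them. Causes were not tested. The embryoid FIB-like class, 99 cells as reported, changed in size with the settings. It held 259 cells with at least 2000 genes and 410 with at most 10% mitochondrial UMIs. At Leiden resolution 1.5 it held 437 cells, and at 0.6 it held 98. Its members' share stayed at 10.3 to 10.6%. Rpl39l and Rpl10l were not examined in the larger FIB-like classes.

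TE-like over EPI-like cells, -0.14 as reported, gave -0.10 outside mitochondrial UMIs, 0.12 with median-of-ratios scaling, -0.20 with each cell weighted equally and 0.00081 with at most 10% mitochondrial UMIs. Median-of-ratios scaling gave 1 member higher and 3 lower. PrE-like over EPI-like blastocyst cells, -0.15 as reported, gave -0.16 outside mitochondrial UMIs, -0.13 with median-of-ratios scaling, -0.13 with equal weights, -0.16 with at least 2000 genes, -0.12 with at most 10% mitochondrial UMIs and -0.16 without barcodes of very low mitochondrial share. Without the filter on low values 1 member was higher and 2 lay over 1.5-fold from the median; equal weights or 10 CPM added left 1 lower, and the mitochondrial limit put 2 over 1.5-fold from the median. TE-like over PrE-like cells, 0.01 as reported, gave 0.051 outside mitochondrial UMIs, 0.29 with median-of-ratios scaling, -0.066 with equal weights, 0.12 with the mitochondrial limit and 0.022 without low-mitochondrial barcodes. Median-of-ratios scaling gave 1 member higher and 1 lower, equal weights gave 5 lower, and the mitochondrial limit gave 1 higher and 5 over 1.5-fold from the median.

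PrE-like cells, embryoid over blastocyst, 0.02 as reported, gave -0.031 outside mitochondrial UMIs, 0.022 with median-of-ratios scaling, -0.033 with equal weights, 0.034 with at least 2000 genes, -0.043 with the mitochondrial limit, 0.026 without low-mitochondrial barcodes and 0.0098 with the clusters led by other markers counted as PrE-like. The count of higher members was 3 outside mitochondrial UMIs, with 10 CPM added or with the mitochondrial limit, and 8 with at least 2000 genes. EPI-like cells, embryoid over blastocyst, 0.43 as reported, gave 0.36 outside mitochondrial UMIs, where 23 members were higher, 0.41 with equal weights and 0.40 with the mitochondrial limit. PrE-like over EPI-like embryoid cells, -0.56 as reported, gave -0.54, -0.55 and -0.57 outside mitochondrial UMIs, with median-of-ratios scaling and with equal weights.

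The TE-like cluster of highest share over the other TE-like clusters, 0.50 as reported, gave 0.44 outside mitochondrial UMIs (19 members higher), 0.41 with median-of-ratios scaling (16 higher), 0.53 with equal weights, 0.36 with the mitochondrial limit (13 higher, 1 lower) and 0.41 with called doublets kept (16 higher). Without the filter on low values 2 were lower and 5 lay over 1.5-fold from the median, and 3 did with the mitochondrial limit. That comparison, the barcodes of very low mitochondrial share and the regrouped PrE-like clusters were added after the data had been seen.

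No paired analysis was possible because each group is 1 library with no replicates. The depth limits Rpl39l and Rpl10l in the embryoid EPI-like cells, which rest on 48 and 20 UMIs, and members under 20 CPM are not compared.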
